A study of Mus musculus with 6 samples.

Results

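The genes described here encode the chaperones, folding enzymes, translocation channel, quality control machinery and stress sensors of the endoplasmic reticulum (ER), the compartment in which secreted and membrane proteins are folded. They were chosen by gene symbol with earlier results of these data known, so counts of them beside shares of all tested genes are descriptions. All 35 were found among the 20327 symbols of the count tables. Proteins enter the ER through the Sec61 channel, are folded there by the Hsp70 chaperone BiP (the product of Hspa5), by lectin chaperones and by disulfide isomerases, and are extracted and degraded when folding fails. A surplus of unfolded protein is sensed by IRE1α, PERK and ATF6, which together drive the unfolded protein response (UPR). Fibroblasts depend on this machinery because they secrete collagens and other matrix proteins in large amounts, and damage to the colonic epithelium places them in an inflamed tissue that is being repaired.

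The libraries compared IL-11⁺ (EGFP-Positive) with IL-11⁻ (EGFP-Negative) fibroblasts of the inflamed colon, to learn how the cells that switch on Il11 differ from their neighbours. Both groups came from C57BL/6 mice of the Il11-Egfp genotype, aged 9 to 15 weeks, that drank 1.5% dextran sulfate sodium (DSS), a polymer that injures the colonic epithelium, for 5 days and then plain water. On day 7 the cells of the colon that lacked Ter119, CD45, CD31 and EpCAM, markers of red cells, leukocytes, endothelium and epithelium, were sorted by EGFP. Genotype and DSS were therefore shared, and no untreated group is compared here. EGFP was carried by a bacterial artificial chromosome transgene, so that it marks activity of the Il11 promoter in that transgene and not the Il11 protein itself. Each group had 3 libraries, and the study's methods name 3 mice.

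RNA was measured by 5′Tag-seq, in which each tag stands for the 5′ part of a polyadenylated transcript. The EGFP-Negative libraries held 1057170, 1078179 and 1169817 tags and the EGFP-Positive libraries 1046538, 1022851 and 1049048. Levels are given as normalized CPM (counts per 10⁶), that is, tags scaled to the TMM-adjusted total of the tested genes in each library, always in the order of replicates 1, 2 and 3. On this scale 3 tags, taken as the floor, stood at 2.46 to 3.18 CPM. Tags were not divided by transcript length, and the tests compare libraries and not genes. Where a gene is called the most abundant or given as a share of a sum, this refers to scaled tags alone. Fold changes are log2 of EGFP-Positive over EGFP-Negative and were tested by quasi-likelihood in edgeR, with Benjamini-Hochberg adjustment over the 9334 genes that reached 10 tags in 3 or more of the 6 libraries. Calls required both a fold change over 2 and an adjusted p under 0.05.

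In IL-11⁺ fibroblasts the 3 Sec61 channel genes, Canx, P4hb and Pdia6 were higher by less than 2-fold and the sensor genes Ern1 and Eif2ak3 by more, while the stress-induced phosphatase subunit gene Ppp1r15a and, less strongly, Ddit3 were lower. Both sensor genes had few tags. Across 14 fits with other settings or libraries left out, Ern1 passed the adjusted p in 7 and Eif2ak3 in 10. Of the 35 genes, 34 passed the filter on low counts. Ern1 and Eif2ak3, which encode the stress sensors IRE1α and PERK, were the 2 members called higher, against 321 of all tested genes (3.44%), and Ppp1r15a was the 1 member called lower, against 595 (6.37%). By the adjusted p alone, 8 members were higher, against 638 of all tested genes (6.84%), and 2 were lower, against 812 (8.7%). The 8 were Canx, P4hb, Pdia6, Ern1, Eif2ak3, Sec61a1, Sec61b and Sec61g, and the 2 were Ppp1r15a and Ddit3. With scaling by library size only, 1 member was called higher and 1 lower, against 256 (2.74%) and 660 (7.07%) of all tested genes, and by the adjusted p 6 were higher and 3 lower, against 483 (5.17%) and 907 (9.72%). Same-numbered libraries of both groups deviated together, and when replicate number entered the fit as a block, 14 members were higher, against 871 of all tested genes (9.33%), and 3 were lower, against 1048 (11.2%). The block added Hyou1, Dnajb11, Pdia4, Edem1, Ssr1 and Serp1 to the higher members and Hspa5 to the lower ones. All 3 EGFP-Positive libraries lay above all 3 EGFP-Negative libraries for 13 members, against 1353 of all tested genes (14.5%), and below them for 3, against 1561 (16.7%). With scaling by library size only, 8 members lay above in this way, against 1040 of all tested genes (11.1%).

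The median log2 fold change of the 34 members was 0.37, beside -0.01 over all tested genes. It was positive for 27 members and negative for 7, where 4553 of all tested genes (48.8%) had a positive value. Comparing same-numbered libraries, 24 members were higher in the EGFP-Positive library of all 3 pairs, against 2191 of all tested genes (23.5%), and 5 were lower in all 3, against 2358 (25.3%). The members' summed level nevertheless barely differed between the groups, at 12022, 13565 and 14701 CPM in the EGFP-Negative and 11037, 14473 and 14608 CPM in the EGFP-Positive libraries. Hspa5, the most abundant member by tags, made up 37.8%, 37.2% and 38.4% of that sum in the EGFP-Negative libraries and 24.6%, 27.5% and 28.2% in the EGFP-Positive libraries, so its share was lower in every IL-11⁺ library. Without it the sum was 8347 ± 803 CPM in the EGFP-Negative and 9767 ± 1255 CPM in the EGFP-Positive group (mean ± SD, n = 3). The groups overlapped, and the EGFP-Positive library was the higher of each same-numbered pair, with 8318 against 7474, 10488 against 8514 and 10494 against 9054 CPM. These are bulk libraries, in which a smaller share of cells expressing a gene and less RNA of that gene per cell cannot be told apart.

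**Figure D1:**
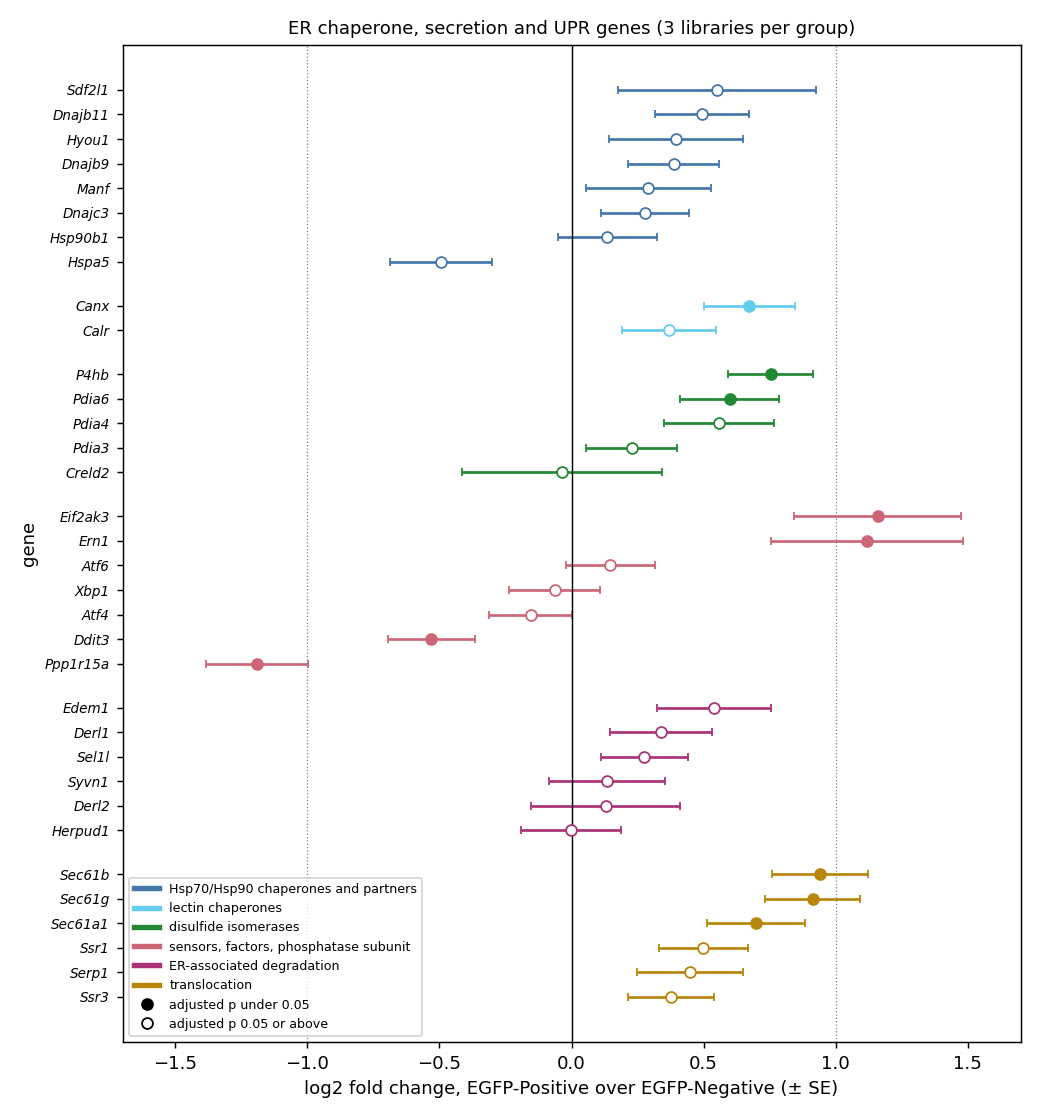
Log2 fold change of EGFP-Positive over EGFP-Negative fibroblasts for the 34 tested members, grouped by role, with the standard error of each (3 libraries per group). Filled circles passed an adjusted p of 0.05 and dotted lines mark a 2-fold change. Ppp1r15a lies farthest to the left at -1.19, and Ern1 and Eif2ak3 lie farthest to the right at 1.12 and 1.16.

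Among the Hsp70 and Hsp90 chaperones of the ER lumen and their partners, none of the 8 genes passed the adjusted p in edgeR or in DESeq2, and 3 had an unadjusted p under 0.05 in edgeR. Of these Dnajb9 and Dnajb11 were on the higher side, where 12.2% of all tested genes had such a p, and Hspa5 on the lower side, where 14.5% had. Hspa5 (chr2:34772090-34776529, here and below on GRCm38/mm10) encodes BiP, which binds unfolded chains and also holds the stress sensors inactive. Its level was 4548, 5051 and 5648 CPM in the EGFP-Negative libraries and 2719, 3985 and 4114 CPM in the EGFP-Positive libraries. All 3 IL-11⁺ libraries lay below all 3 IL-11⁻ libraries, and replicate 1 was the lowest of each group. The log2 fold change was -0.50 ± 0.19 (SE), which missed the threshold at an edgeR adjusted p of 0.097 and passed it with the replicate block, at -0.51 and an adjusted p of 0.00289.

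Hsp90b1 (chr10:86690841-86705444) encodes GRP94, the Hsp90 of the ER, and its promoter shares control elements with that of Hspa5. It stood at 1386, 1609 and 1987 CPM in the EGFP-Negative and 1479, 1934 and 2059 CPM in the EGFP-Positive libraries. The groups overlapped, replicate 1 was again the lowest of each, and the log2 fold change was 0.13 ± 0.19 (edgeR adjusted p = 0.707).

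Dnajb11 encodes the J-domain cochaperone ERdj3, which hands clients to BiP. Its level was 60.2, 68.8 and 70.6 CPM in the EGFP-Negative and 94.3, 103 and 84.9 CPM in the EGFP-Positive libraries, with no overlap, and its log2 fold change of 0.49 ± 0.18 had an edgeR adjusted p of 0.0723 (0.0452 with the block). Hyou1, a large Hsp70 relative that serves BiP as a nucleotide exchange factor, was at 74.5, 112 and 176 CPM against 114, 159 and 204 CPM. Here the groups overlapped widely while each IL-11⁺ library exceeded the IL-11⁻ library of the same number, and the edgeR adjusted p was 0.354 without and 0.0497 with the block. Dnajb9 (a cochaperone that favours degradation and restrains IRE1α), Dnajc3 (p58IPK), Manf (a secreted stress-induced factor) and Sdf2l1 (a partner of Dnajb11) had log2 fold changes of 0.39, 0.28, 0.29 and 0.55, and edgeR adjusted p values from 0.154 to 0.482. Sdf2l1 had the widest spread of these, with 15.3, 42.4 and 37.0 CPM against 21.2, 41.6 and 75.3 CPM, and its log2 fold change went to -0.0078 without EGFP-Positive replicate 3.

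The lectin chaperones calnexin and calreticulin hold glycoproteins in the ER until they are folded. Canx (chr11:50293957-50325673), the membrane-bound one, was at 425, 514 and 516 CPM in the EGFP-Negative libraries and 656, 765 and 900.2 CPM in the EGFP-Positive libraries. Every IL-11⁺ library was above every IL-11⁻ library, and the log2 fold change was 0.67 ± 0.17 (edgeR adjusted p = 0.011). The adjusted p rose to 0.069 without EGFP-Negative replicate 1, the lowest library for this gene. Calr (chr8:84842088-84846931), the soluble one, was at 489.8, 624 and 632 CPM against 614, 870.1 and 769 CPM. Only replicate 1 of the EGFP-Positive group reached into the range of the EGFP-Negative group, and the log2 fold change of 0.37 ± 0.18 did not pass (edgeR adjusted p = 0.195, 0.0509 with the block).

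Disulfide isomerases form and reshuffle the disulfide bonds of secreted proteins. P4hb (chr11:120560298-120573253) encodes protein disulfide isomerase itself, which is also the β subunit of the collagen prolyl 4-hydroxylase. Its level was 259, 306 and 287 CPM in the EGFP-Negative and 462, 528 and 446 CPM in the EGFP-Positive libraries, a log2 fold change of 0.75 ± 0.16 (edgeR adjusted p = 0.00288). The groups were well apart for this gene, with the lowest IL-11⁺ library at 446 CPM and the highest IL-11⁻ library at 306 CPM, and it passed in all 15 alternative fits.

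Pdia6 (chr12:17266589-17284785), which acts with BiP, was at 244, 284 and 325 CPM against 333, 530.0 and 430.1 CPM. The groups came close to each other without overlapping, and the log2 fold change was 0.60 ± 0.19 (edgeR adjusted p = 0.036). The threshold was missed without EGFP-Negative replicate 1 (adjusted p = 0.154), EGFP-Negative replicate 2 (0.116), EGFP-Positive replicate 2 (0.22) or EGFP-Positive replicate 3 (0.0617), without replicate 1 of both groups (0.0577), and with scaling by library size only (0.0884). Pdia4, a large isomerase with several active domains, was at 70.7, 123 and 114 CPM and 119.8, 176 and 159 CPM. Its IL-11⁺ libraries overlapped the IL-11⁻ ones but were each higher within the pair, and its edgeR adjusted p was 0.082 without and 0.00676 with the block. Pdia3, which works on glycoproteins bound by calnexin and calreticulin, had a log2 fold change of 0.23 ± 0.17, and Creld2, a stress-induced isomerase, one of -0.04 ± 0.38. Creld2 turned to a positive value with no filter on low counts and with the replicate block, so it has no direction here.

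For all 6 genes of the translocation machinery the IL-11⁺ libraries lay entirely above the IL-11⁻ libraries, against 14.5% of all tested genes. With scaling by library size only this held for 3, Sec61b, Sec61g and Ssr1, against 11.1%. All 6 were higher at an unadjusted p under 0.05, against 1135 of all tested genes (12.2%). The adjusted p was passed by 3, against 6.84% of all tested genes, and by 5 with the block, against 9.33%. The Sec61 channel, through which nascent chains cross the ER membrane, has 3 subunits, and these were the 3 that passed. Sec61a1 (chr6:88503607-88518800), the pore, was at 186, 203 and 233 CPM in the EGFP-Negative libraries and 251, 362 and 397 CPM in the EGFP-Positive libraries. Replicate 1 was the lowest of both groups, and the log2 fold change was 0.70 ± 0.19 (edgeR adjusted p = 0.014). The adjusted p went to between 0.0629 and 0.0694 without EGFP-Negative replicate 1 or 2 or EGFP-Positive replicate 2 or 3.

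Sec61b (chr4:47474661-47483233), which encodes the β subunit, was at 97.4, 114 and 95.3 CPM against 156, 233 and 199 CPM, a log2 fold change of 0.94 ± 0.18 (edgeR adjusted p = 0.00122). Sec61g (chr11:16501638-16508484), for the γ subunit, was at 85.0, 115 and 88.7 CPM against 161, 174 and 208 CPM, a log2 fold change of 0.91 ± 0.18 (edgeR adjusted p = 0.00141). Both were just under 2-fold higher, at 1.92-fold and 1.88-fold, and both passed in all 15 alternative fits. Their counts are less certain than those of the other members, because 29.1% of the 50-nt windows in the first 300 nt of Sec61b transcripts and 21.4% of those of Sec61g also occur in transcripts of other genes, among them Gm10320 and Gm10177, and how tags with several matches were counted is not stated. This share was 12.7% for Derl1, 6.87% for Hsp90b1, 4.78% for Dnajb9 and 0 for the other members.

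Ssr1 and Ssr3 encode subunits of the translocon-associated protein complex, and Serp1 encodes a small protein that stabilises membrane proteins at the channel during stress. Ssr1 was at 153, 119 and 151 CPM in the EGFP-Negative and 208, 211 and 179 CPM in the EGFP-Positive libraries, and its log2 fold change of 0.50 ± 0.17 was just short of the threshold (edgeR adjusted p = 0.0522, 0.0149 with the block). For Serp1 the values were 72.6, 108 and 134 CPM and 136, 156 and 139 CPM, with a log2 fold change of 0.45 ± 0.20 (edgeR adjusted p = 0.154, 0.038 with the block). The highest IL-11⁻ library and the lowest IL-11⁺ library were close together for Serp1, at 134 and 136 CPM. Ssr3 had a log2 fold change of 0.38 ± 0.16 (edgeR adjusted p = 0.139).

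**Figure D2:**
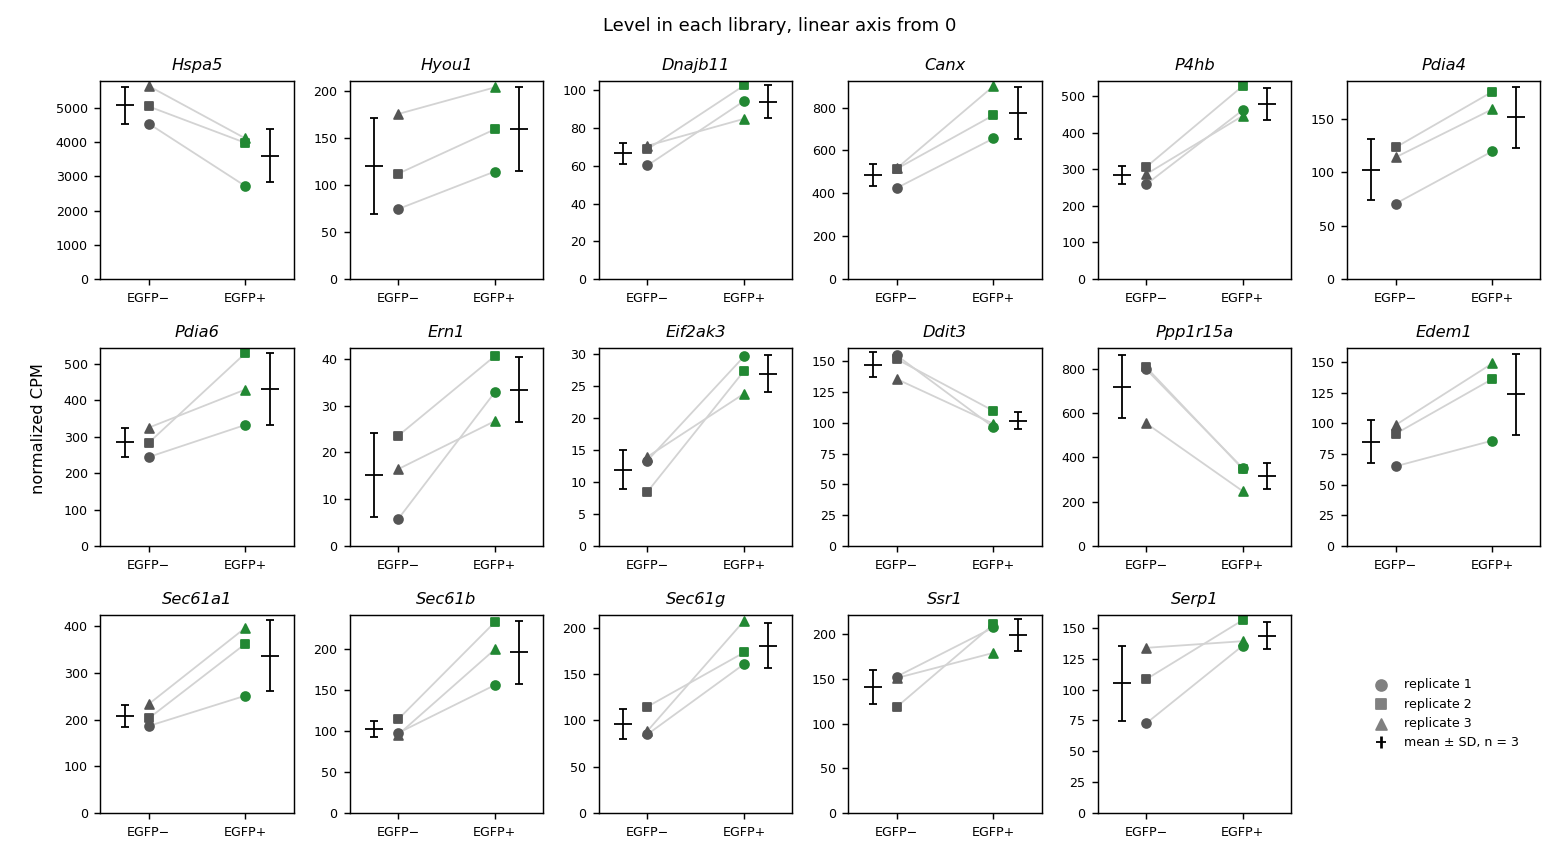
Normalized CPM in each library for the 17 members that passed the adjusted p with or without the replicate block, on linear axes from 0. Symbols mark replicates, grey lines join same-numbered libraries, and bars give mean ± SD of 3 libraries. Hspa5, Ddit3 and Ppp1r15a slope down in all 3 pairs and the other members shown slope up in all 3.

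The stress sensors and the transcription factors below them showed no common direction. Ern1 (chr11:106397620-106487796) encodes IRE1α, the kinase and endoribonuclease that splices Xbp1 mRNA. Its level was 5.73, 23.6 and 16.4 CPM in the EGFP-Negative libraries and 32.9, 40.6 and 26.7 CPM in the EGFP-Positive libraries, from 6, 25 and 20 tags against 31, 40 and 28. The groups did not overlap, but EGFP-Negative replicate 1 was far below the other libraries. The log2 fold change was 1.12 ± 0.36 (edgeR adjusted p = 0.0437). It fell to 0.74 without EGFP-Negative replicate 1 (adjusted p = 0.165), and the call was also lost without EGFP-Negative replicate 3 (0.074), EGFP-Positive replicate 1 (0.0828) or EGFP-Positive replicate 2 (0.176), without replicate 1 of both groups (0.238), with scaling by library size only (0.0685) and in DESeq2 (0.065).

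Xbp1 (chr11:5520641-5525993), the transcription factor gene whose mRNA IRE1α splices, was at 206, 247 and 264 CPM against 193, 229 and 263 CPM. The ranges of the groups nearly coincided, with a log2 fold change of -0.06 ± 0.17 (edgeR adjusted p = 0.863), and the sign turned without EGFP-Negative replicate 3 (0.01) or EGFP-Positive replicate 1 (0.05). Tags from the 5′ end counted per gene do not separate the spliced from the unspliced form.

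Eif2ak3 (chr6:70844484-70905241) encodes PERK, the kinase that slows translation by phosphorylating eIF2α. It was at 13.4, 8.48 and 14.0 CPM in the EGFP-Negative libraries and 29.7, 27.4 and 23.8 CPM in the EGFP-Positive libraries, from 14, 9 and 17 tags against 28, 27 and 25. The groups were clearly apart, and the log2 fold change was 1.16 ± 0.32 (edgeR adjusted p = 0.0162). The adjusted p went above the threshold without EGFP-Negative replicate 2 (0.0825), EGFP-Positive replicate 1 (0.0563), EGFP-Positive replicate 2 (0.0508) or replicate 1 of both groups (0.0967), while the log2 fold change stayed between 0.98 and 1.29 in the fits that left out 1 library. For both sensor genes the calls rest on few tags.

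Downstream of PERK, Atf4 (chr15:80255184-80257545), the transcription factor whose mRNA is translated when eIF2α is phosphorylated, was at 774, 685 and 748 CPM against 660.3, 624 and 698 CPM. The lowest IL-11⁻ library lay below the highest IL-11⁺ library, and the log2 fold change was -0.15 ± 0.16 (edgeR adjusted p = 0.589). Ddit3 (chr10:127290793-127296291), which encodes the pro-apoptotic factor CHOP, was at 155, 152 and 135 CPM in the EGFP-Negative and 96.4, 109.7 and 99.2 CPM in the EGFP-Positive libraries. All IL-11⁺ libraries were lower, with a log2 fold change of -0.53 ± 0.16 (edgeR adjusted p = 0.0344, 0.0126 with the block). Among the fits that left out 1 library it passed only without EGFP-Negative replicate 3. The adjusted p was 0.0984 without EGFP-Negative replicate 1, 0.118 without EGFP-Negative replicate 2, and 0.114, 0.0681 and 0.0854 without EGFP-Positive replicates 1, 2 and 3, and it was 0.219 without replicate 1 of both groups, 0.103 with no filter and 0.108 in DESeq2.

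Ppp1r15a (chr7:45522917-45526268) encodes GADD34, the regulatory subunit that directs protein phosphatase 1 to eIF2α and so restores translation. Its level was 797, 806 and 553 CPM in the EGFP-Negative libraries and 351, 347 and 247 CPM in the EGFP-Positive libraries. The highest IL-11⁺ library was far below the lowest IL-11⁻ library, and the log2 fold change was -1.19 ± 0.19, or 2.28-fold lower (edgeR adjusted p = 2.38e-04). The value stayed between -1.35 and -1.04 and passed both thresholds in all 15 alternative fits. Atf6, which encodes the sensor that is cleaved in the Golgi to become a transcription factor, was at 95.5, 106 and 87.0 CPM against 111, 99.5 and 108 CPM, with overlapping groups and a log2 fold change of 0.15 ± 0.17 (edgeR adjusted p = 0.639).

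Of the 7 genes for ER-associated degradation (ERAD), 6 were tested and none passed the adjusted p in edgeR or DESeq2. In edgeR 1 was higher at an unadjusted p under 0.05, against 12.2% of all tested genes. That gene was Edem1, which extracts misfolded glycoproteins from the calnexin cycle. It was at 64.9, 91.4 and 98.5 CPM in the EGFP-Negative and 85.8, 136 and 149 CPM in the EGFP-Positive libraries, higher in each pair with overlap between the groups, and its log2 fold change of 0.54 ± 0.21 had an edgeR adjusted p of 0.105 (0.0163 with the block). Sel1l, the scaffold of the ubiquitin ligase complex, was at 90.7, 87.6 and 98.5 CPM against 110.2, 117 and 109 CPM and did not overlap, with a small log2 fold change of 0.28 ± 0.17 (edgeR adjusted p = 0.311). Herpud1, an adaptor of that complex, was level at 0.00 ± 0.19 and changed sign between scalings. Syvn1 (the ligase Hrd1), Derl1 and Derl2 (membrane proteins of the exit channel) had log2 fold changes of 0.13, 0.34 and 0.13. Derl3, the relative of these typical of professional secretory cells, had 0 tags in 5 libraries and 3 in EGFP-Positive replicate 2. It was thus at or under the floor in both groups, and no fold change is given.

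Part of the spread within groups followed the replicate number. Among the 34 tested members, 21 were lowest in replicate 1 of both groups, where 1257 of all tested genes (13.5%) were. In the EGFP-Negative group the median member was higher than in replicate 1 by 0.23 on the log2 scale in replicate 2 and by 0.34 in replicate 3, and in the EGFP-Positive group by 0.35 and 0.36, while the medians over all tested genes lay between -0.02 and 0.00. Creld2 varied most in the EGFP-Negative group and Sdf2l1 in the EGFP-Positive group (3.55-fold). Creld2 was at 15.3, 64.1 and 72.3 CPM in the EGFP-Negative and 27.6, 57.9 and 62.9 CPM in the EGFP-Positive libraries, so that EGFP-Negative replicates differed by up to 4.73-fold while the group means were close. Sdf2l1, Manf and Hyou1 also varied more within groups than between them. By contrast P4hb, Atf4, Ddit3 and Sel1l had highest-to-lowest ratios under 1.2 within each group. Replicate 1 had the fewest tags of the EGFP-Negative but not of the EGFP-Positive libraries, and what set it apart was not tested.

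The wider secretory pathway was examined in lists of other genes, also chosen with earlier results of these data known. Their counts by the adjusted p stand beside the 6.84% higher and 8.7% lower of all tested genes in edgeR (5.09% and 6.51% in DESeq2). Of 30 further genes for ER entry, covering the channel's partners, signal peptidase, the signal recognition particle and its receptor, and oligosaccharyl transferase, all had positive log2 fold changes, with a median of 0.46. By the adjusted p 9 were higher (7 in DESeq2), and 15 with the replicate block, against 9.33% of all tested genes. Separation without overlap was seen for 19, against 14.5%, and for 11 with scaling by library size only, against 11.1%. Srp68, a protein of the signal recognition particle, was the 1 called at over 2-fold, with 45.2 ± 8.52 CPM in the EGFP-Negative and 92.9 ± 15.5 CPM in the EGFP-Positive group (mean ± SD, n = 3) and a log2 fold change of 1.03 ± 0.21 (edgeR adjusted p = 0.00172). Of 40 genes for transport between ER and Golgi, 38 had positive values, the median was 0.32, and 8 were higher by the adjusted p (4 in DESeq2). With the replicate block 12 were higher, against 9.33% of all tested genes. None of the 40 was called at over 2-fold in edgeR or DESeq2, with 16 on the higher side at an unadjusted p under 0.05 in edgeR, against 12.2% of all tested genes. The 8 include Lman1, a cargo receptor for glycoproteins, at 92.0 ± 1.3 CPM and 161 ± 13.6 CPM with a log2 fold change of 0.81 ± 0.16 (edgeR adjusted p = 0.00187), and the receptors Kdelr1 and Kdelr2, which return escaped ER residents, at 0.75 and 0.62 on the log2 scale, which did not pass in DESeq2 (adjusted p = 0.0558 and 0.0627).

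Among 32 tested further folding enzymes, 5 were higher by the adjusted p (3 in DESeq2), with a list median of 0.22. The 2 called at over 2-fold were peptidyl-prolyl isomerases, Fkbp10, which acts on procollagen, at 37.5 ± 7.42 CPM and 80.2 ± 18.3 CPM (log2 fold change 1.08 ± 0.23, edgeR adjusted p = 0.00249), and Fkbp11 at 7.11 ± 2.16 CPM and 19.1 ± 2.02 CPM (log2 fold change 1.40 ± 0.38, edgeR adjusted p = 0.0157). The other 3 were Serpinh1, the collagen chaperone Hsp47, at 0.67 ± 0.22, Uggt1, the folding sensor for glycoproteins, at 0.72 ± 0.21, and P4ha2, a catalytic subunit of the prolyl 4-hydroxylase that contains the P4hb product, at 0.70 ± 0.23. In DESeq2 Uggt1 and P4ha2 did not pass (adjusted p = 0.0647 and 0.114). In the list of secreted matrix cargo, 5 of 13 genes were higher and 1 lower by the adjusted p. Called at over 2-fold were Col3a1, Col5a1 and Col5a2, with log2 fold changes of 1.04, 1.07 and 1.06, while Lum, a proteoglycan gene, was lower at -0.64 ± 0.20. Of 25 tested further ERAD genes 2 were higher, against 6.84% of all tested genes, and the list median was 0.18. They were Selenos at 0.85 ± 0.17 and Vcp, the ATPase that pulls proteins out of the ER membrane, at 0.53 ± 0.16.

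Genes of the PERK and ATF4 arm did not share a direction. Of 27 tested, 3 were higher and 2 lower by the adjusted p (2 and 2 in DESeq2), and the median was 0.25. Over all tested genes 6.84% were higher and 8.7% lower in edgeR. Ddit4, an inhibitor of mTORC1 signalling, was at 123 ± 59.2 CPM in the EGFP-Negative and 249 ± 33.4 CPM in the EGFP-Positive group, with a log2 fold change of 1.02 ± 0.26 (edgeR adjusted p = 0.0115). The methionyl-tRNA synthetase gene Mars was higher by 1.07 ± 0.31, a call lost in DESeq2 (adjusted p = 0.0657), and the asparaginyl-tRNA synthetase gene Nars by 0.86 ± 0.18. Vldlr, a lipoprotein receptor, was lower at -1.82 ± 0.39. Atf3, a stress-induced repressor, was at 1100, 1401 and 640.5 CPM in the EGFP-Negative libraries and 232, 308 and 148 CPM in the EGFP-Positive libraries, with no overlap and a log2 fold change of -2.19 ± 0.27 (edgeR adjusted p = 1.27e-05). Of 6 tested genes of the ATF6 family and its proteases, 2 were higher, Creb3l1, a regulator of collagen secretion, at 1.12 ± 0.26 and Atf6b at 0.98 ± 0.27, the latter not in DESeq2 (adjusted p = 0.0568).

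Ppp1r15a and Ddit3 were lower alongside genes that tissue dissociation can induce. In the list of 10 immediate early genes, which includes Atf3, 7 were lower by the adjusted p (8 in DESeq2), none had a positive log2 fold change, and the median was -0.94. Zfp36 and Junb were called besides Atf3, with log2 fold changes of -1.17 ± 0.18 and -1.01 ± 0.16. The summed level of the 10 was 28830, 29769 and 22555 CPM in the EGFP-Negative libraries and 15327, 17117 and 15000 CPM in the EGFP-Positive libraries, and Egr1 was the most abundant. Replicate 3, the lowest EGFP-Negative library for Ppp1r15a, was also the lowest of that group in this sum. Of 13 cytosolic heat shock genes, 4 were lower by the adjusted p (2 in DESeq2, without Hspa1b and Hspb1), Hspa1a, Hspa1b, Hspb1 and Dnajb1, with log2 fold changes between -0.80 and -0.55, and Hspe1 was higher at 0.63 ± 0.17. The part that these differences have in the lower Ppp1r15a and Ddit3 was not tested.

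The groups also differed in markers of other stromal cells. All 7 smooth muscle markers were called lower in the EGFP-Positive group, with a summed level of 2569, 3214 and 4023 CPM in the EGFP-Negative and 96.4, 155 and 335 CPM in the EGFP-Positive libraries and Myh11 as the most abundant. Of 7 pericyte markers 4 were called lower, while Kcnj8 and Abcc9 were higher by the adjusted p (Kcnj8 not in DESeq2). Their sum was 2681, 2289 and 2105 CPM against 1076, 903 and 803 CPM, and Rgs5 was the most abundant in the EGFP-Negative and Abcc9 in the EGFP-Positive libraries. Fibroblast markers summed to 20922, 20745 and 23559 CPM against 41073, 32860 and 29555 CPM, with Dcn the most abundant. By the adjusted p 4 of these 8 were higher and Lum was lower, and 5 of the 8 also belong to the matrix cargo list. The part of other cell types in the values of Hspa5 and of the translocation genes was not tested.

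Markers of the cell types that the sort removes were mostly low. Epithelial markers summed to at most 12.3 CPM and goblet cell markers to at most 5.73 CPM in any library, with all 7 goblet cell markers at or under the floor in every library. Leukocyte markers summed to 23.9, 48.1 and 27.9 CPM and 36.0, 15.2 and 23.8 CPM, with Cd74 as the 1 tested gene, called lower in edgeR and not in DESeq2. Endothelial markers summed to 45.8, 27.3 and 45.2 CPM and 20.1, 13.2 and 12.4 CPM, led by Tek, the 1 tested gene and also called lower, with Pecam1 at 1 tag in EGFP-Negative replicate 2 and 0 elsewhere. Red cell genes, led by Hbb-bs, summed to 90.7, 0 and 305 CPM in the EGFP-Negative and to at most 19.1 CPM in the EGFP-Positive libraries. Plasma cells are rich in ER chaperones, and their marker list summed to 366, 383 and 89.5 CPM in the EGFP-Negative and 1158, 1279 and 666 CPM in the EGFP-Positive libraries. Of its 3 tested genes 2 were called higher, Sdc1, the most abundant, at 2.45 ± 0.32 and Prdm1 at 1.01 ± 0.27, both of which stromal cells can also express. Jchain was at 141, 149.8 and 3.28 CPM and 55.1, 249 and 64.8 CPM, with overlapping groups, and Mzb1, Pou2af1, Irf4 and Tnfrsf17 did not exceed 5.08 CPM in any library.

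Promoters were searched because many of these genes answer to the same factors during the UPR. RefSeq promoter sequences on GRCm38.p6 around the transcript start were matched for 30 members. Those of Hyou1, Manf, Atf6, Derl1 and Sec61a1 were not used here. For 25 of the 30, the first bases from the start also occurred in a GENCODE transcript of that gene. The other starts were not checked further, and distances from them are less certain. Both strands were searched for exact matches to the ER stress response element ERSE (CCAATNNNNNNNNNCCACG), to ERSE-II (ATTGGNCCACG), which shares the CCACG end, to the UPRE core (TGACGTGG) and to the C/EBP-ATF element CARE (TTGCATCA). ERSE occurred in 9 of the 30 promoters (30%), at 10 places. Beside this stand 37 of the 27025 symbols in the table (0.137%) and 14 of the 7175 tested genes with a promoter (0.195%). The motif and the members were both chosen for the UPR, so these shares describe the sequences and are no result of the libraries. ERSE-II occurred in 2 (6.67%), Dnajb11 and Herpud1, beside 0.0444% of all symbols. CARE occurred in 1 (3.33%), Herpud1, beside 1.03%, without overlap with the ERSE-II of that promoter, and the UPRE core in 0 beside 0.714%.

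The 39-base windows below hold the ERSE matches of the most abundant chaperones and of the higher members Canx and Pdia6, 5′ to 3′ along the strand on which the motif reads, with the fixed letters of the motif in capitals. Among the genes shown, Hspa5 had a negative log2 fold change (-0.50, edgeR adjusted p = 0.097) and the others had positive ones. Of the others, Canx and Pdia6 passed the adjusted p, and Hsp90b1 and Calr did not. Any link between the motif and the direction of a fold change was not tested.
Hspa5 (chr2:34772015-34772053, plus strand): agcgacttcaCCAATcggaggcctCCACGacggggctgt
Hsp90b1 (chr10:86705628-86705666, minus strand): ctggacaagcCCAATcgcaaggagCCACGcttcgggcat
Hsp90b1 (chr10:86705523-86705561, plus strand): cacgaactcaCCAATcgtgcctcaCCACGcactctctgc
Calr (chr8:84847065-84847103, plus strand): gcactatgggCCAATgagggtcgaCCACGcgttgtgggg
Canx (chr11:50325790-50325828, minus strand): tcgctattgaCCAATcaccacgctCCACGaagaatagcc
Pdia6 (chr12:17266481-17266519, plus strand): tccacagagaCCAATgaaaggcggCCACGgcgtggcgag
In Hspa5 the match lies 65 to 47 bases before the transcript start, in Canx 145 to 127 and in Pdia6 98 to 80. Hsp90b1 holds a pair of matches on opposite strands, 212 to 194 and 107 to 89 bases before its start. The other promoters with a match were those of Dnajc3, Creld2, Syvn1 and Derl3. The 8 tested members with an ERSE had log2 fold changes from -0.50 (Hspa5) to 0.67 (Canx) with a median of 0.21, and the 21 tested members without one had a median of 0.45. A match is a description of the sequence and does not show that a factor binds there.

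**Figure D3:**
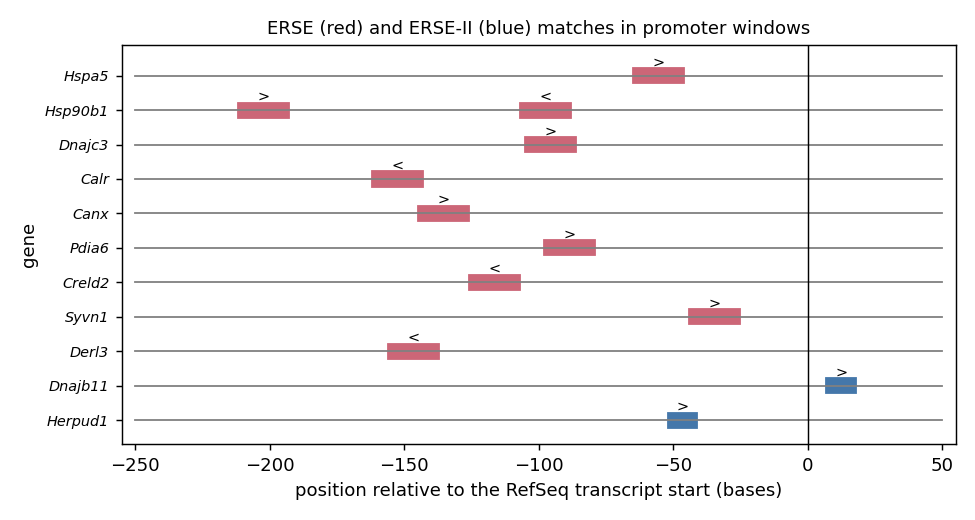
Positions of exact ERSE (red) and ERSE-II (blue) matches in member promoters, in bases relative to the RefSeq transcript start at the vertical line. Arrowheads show the orientation relative to the gene. All 10 ERSE matches lie before the start, and the ERSE-II of Dnajb11 lies after it.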

How the data were processed

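Colon cells of DSS-treated Il11-Egfp reporter mice were sequenced by 5′Tag-seq on an Ion Torrent instrument, with 3 EGFP-Negative and 3 EGFP-Positive libraries. Per the submitters' processing notes and the methods, the authors used cutadapt 1.18 for trimming and Bowtie2 2.2.5 for mapping to RefSeq RNA of mm10, and deposited raw tag counts per gene symbol. Treatment of tags with several matches is not given in the sources used here. Intervals of counting error were not computed, and the floor of 3 tags covers counting error only.

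The methods' wording on genes of 10 or more tags was read as keeping them. Genes that reached 10 tags in 3 or more of 6 libraries were fitted in R 4.3.3 with edgeR 4.0.16 (TMM, glmQLFit and glmQLFTest, Benjamini-Hochberg adjustment over 9334 genes). SE was the absolute log2 fold change divided by the square root of the quasi-likelihood F. The methods give the thresholds (adjusted p under 0.05, fold change over 2). P-values measure the spread between these libraries. Within-group library pairs differed by more than sampling noise (chi-square per degree of freedom 3.37 to 8.97), so each counted once.

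Replicate numbers come from the labels, and the methods name 3 mice. Deviations from group means of same-numbered libraries correlated at r = 0.23, 0.19 and 0.26 across the 5063 genes averaging 30 tags or more, so the numbers were taken to pair the libraries.

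Alternatives were RLE, library size only, iterative TMM (3 iterations, first-round adjusted p of 0.1, at least 5% of genes left out), 2 other filters (1 tag in 1 library, 10 tags in all 6), DESeq2 1.42.0, thinned counts, the replicate block, each library left out, and, chosen after seeing the data, replicate 1 of both groups left out. Members and lists were chosen with earlier results of these data known. Per-library values are given for members past the adjusted p, the 3 most abundant, and the sensors and factors, and from each list the called genes, at most 3 per direction by smallest p. Other genes named were chosen after their values were seen. Ero1a and Ero1b were matched as Ero1l and Ero1lb, and Clgn, Cdh5 and Cdh1 are not analysed here. Shared 5′ windows were found in GENCODE vM21 transcripts (GRCm38), and gene positions and promoters come from RefSeq (GRCm38.p6).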

Additional observations from a re-analysis of the deposited data

How the results depend on the processing

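Over 15 alternative fits the member values gave 508 comparisons, of which 443 kept direction and side of the threshold, 18 newly passed it, 30 lost it and 17 changed sign. P4hb, Sec61b, Sec61g and Ppp1r15a passed the adjusted p in all 15 and Canx in 14. Sec61a1 passed in 11 of 15, Eif2ak3 in 10 of 14, Pdia6 in 9 of 15, Ern1 in 7 of 14 and Ddit3 in 7 of 15. The median member log2 fold change ranged from 0.24 to 0.49. Ppp1r15a was the 1 member called lower in every fit.

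The number called higher was 2 with TMM and all libraries (3.44% of all tested genes). It was 1 with library size only (2.74%) and 1 in DESeq2 (3.04%), Eif2ak3 in both. With 10 tags required in all 6 libraries it was 0 (3.1% of all tested genes), where Ern1 and Eif2ak3 fail the filter. It was 0 to 3 with single libraries left out (2.86% to 3.52%) and 1 without replicate 1 of both groups (2.62%). The genes called were not always the same. Without EGFP-Negative replicate 2 they were Ern1, Sec61b and Sec61g, and without EGFP-Positive replicate 1 only Sec61b. Neither Ern1 nor Eif2ak3 passed the adjusted p without replicate 1 of both groups. By the adjusted p alone, the number higher was 4 to 9 with single libraries left out (4.89% to 5.99% of all tested genes). It was 5 without replicate 1 of both groups (3.82%), 11 with no filter (3.99%) and 7 in DESeq2 (5.09%). The number lower was 1 to 2 with single libraries left out (6.46% to 7.96%). It was 1 with no filter (4.93%), in DESeq2 (6.51%) and without replicate 1 of both groups (5.11%). Members higher without overlap fell from 13 to 8 with library size only (11.1% of all tested genes in place of 14.5%). That scaling left 6 members higher and 3 lower by the adjusted p, in place of 8 and 2, with Hspa5 (adjusted p = 0.0492) the added one.

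With the replicate block 14 members were higher by the adjusted p, including all 8 of the fit without it, and 3 were lower. The block changed no other call among the members and none at over 2-fold in the pathway lists. By the adjusted p alone, 7 further folding enzymes and 3 further ERAD genes were higher with the block. So were 4 genes of the PERK and ATF4 arm, 6 of the matrix cargo and 5 fibroblast markers, beside 9.33% of all tested genes. Of the immediate early genes 9 were lower with it, beside 11.2%.

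Signs changed for 6 members, none of which passed the adjusted p. Herpud1 was at 0.0102 with RLE, 0.0104 in DESeq2, 0.0388 with no filter and 0.0881 without replicate 1 of both groups, and -0.16 to 0.17 with single libraries left out. Creld2 was at 0.00234 with no filter, 0.0238 with the block and -0.46 to 0.32 with single libraries left out. The same ranges were -0.0494 to 0.27 for Derl2, -0.18 to 0.0508 for Xbp1, -0.0078 to 0.89 for Sdf2l1 and -0.0534 to 0.37 for Syvn1. The causes were not tested.

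Only RNA was measured, at a single time point and in 3 libraries per group. Splicing of Xbp1, cleavage of ATF6 and phosphorylation of PERK or eIF2α were not analysed here, so levels of these genes do not give the activity of the response. The sorted groups differ in markers of other stromal cells and in immediate early genes, and values of bulk libraries cannot be assigned to a cell type.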
